A study of Mus musculus with 36 samples.

Results

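MicroRNA profiles of postnatal day 7 (P7) wild-type mouse kidneys were compared with those of postnatal day 1 (P1) in 2 floxed lines, and changes present in both lines were sought. The members were the 12 of 36 miRNA-seq libraries whose labels gave a WT kidney of the Pkd1f or Pkd2f line at P1 or P7. Each line and age was represented by 3 libraries. The series sequenced small RNA from whole kidneys of 2 models of autosomal dominant polycystic kidney disease at P1, P3 and P7. WT kidneys carried floxed alleles without Cre (Pkd1f/f or Pkd2f/f), so they were floxed controls and not unmodified mice, and KO kidneys carried the same alleles with HoxB7-cre, which acts in the collecting duct. All mice were on the C57BL/6 background. Neither line nor age was tied in the labels to litters or separate animals, so p-values measure only the spread between these libraries, and line cannot be told apart from anything else that differed between them.

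MicroRNAs are RNAs of about the length of a short primer, cut from hairpin precursors, that pair with messenger RNAs mainly through the seed, bases 2 to 8 from the 5′ end, and lower their output. The mouse kidney is still forming nephrons at birth. Nephron progenitors are used up in the first postnatal days, after which tubules lengthen and take on adult transport. miRNAs of dividing progenitors, such as the miR-17/92 cluster, and miRNAs of differentiated tubule, such as miR-192 and miR-194, are known from opposite ends of this course.

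The sequences of the miRNAs on which the comparison turns are shown with the seed in capitals, taken from RefSeq (GRCm38.p6), which held an entry for 74 of the 84 miRNAs called in both lines. They were chosen because they carry the results below, and the seeds are marked because miRNAs with 1 seed can act on the same targets. The 12 miRNAs that follow, from miR-192-5p to miR-181c-5p, were higher at P7 in both lines.
miR-192-5p: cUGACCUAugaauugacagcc
miR-194-5p: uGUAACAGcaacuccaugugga
miR-802-5p: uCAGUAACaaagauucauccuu
miR-204-5p: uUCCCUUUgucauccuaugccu
miR-211-5p: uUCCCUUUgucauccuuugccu
miR-99a-5p: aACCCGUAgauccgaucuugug
miR-99b-5p: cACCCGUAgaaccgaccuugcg
miR-100-5p: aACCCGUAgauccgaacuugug
miR-195a-5p: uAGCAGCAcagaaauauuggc
miR-497a-5p: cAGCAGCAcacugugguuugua
miR-181a-5p: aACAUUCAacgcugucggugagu
miR-181c-5p: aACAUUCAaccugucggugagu

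miR-378d and miR-378c, which were also higher in both lines, are shown because miR-378d changed more in Pkd1f than in Pkd2f.
miR-378d: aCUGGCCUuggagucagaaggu
miR-378c: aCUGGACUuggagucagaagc

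The miRNAs of the next set were lower at P7 in both lines. The first 4 come from the miR-17/92 cluster and the last 5 from imprinted loci.
miR-17-5p: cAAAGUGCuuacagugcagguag
miR-20a-5p: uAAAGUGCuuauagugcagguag
miR-18a-5p: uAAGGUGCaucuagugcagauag
miR-92a-3p: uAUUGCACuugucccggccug
miR-483-3p: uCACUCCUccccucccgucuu
miR-483-5p: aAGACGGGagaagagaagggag
miR-335-3p: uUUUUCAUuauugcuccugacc
miR-134-5p: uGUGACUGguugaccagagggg
miR-540-3p: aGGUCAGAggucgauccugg

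The 12 libraries held 13022619 to 27519491 miRNA reads, and 696 of 1915 mature miRNAs had at least 10 reads in at least 3 of them and were tested. miR-10a-5p and miR-10b-5p, both from Hox clusters, took 42.8% to 81% of the reads of a library, so levels are given as TMM-normalised CPM, read counts brought to a common library size with a factor that follows the typical miRNA and not the total. These factors ran from 0.465 to 1.87, and a factor under 1 raises the CPM of a library above its plain share. The 10 most abundant miRNAs took a larger share at P7 (difference of 5.9 percentage points, exact two-sided permutation test within lines p = 0.035, adjusted over 4 measures 0.0733), which did not pass the correction, and the miR-10 share did not differ by the same test (p = 0.385). Tubule miRNAs (miR-192, miR-194, miR-215, miR-802 and miR-204) were present in every library, at 5380 to 23800 CPM summed. Marker lists set 2 libraries apart. In the first Pkd1f P1 library 7 striated muscle miRNAs summed to 1530 CPM against 16.1 to 52.3 in the other 11, and in the third Pkd2f P1 library 2 liver miRNAs summed to 254 CPM against 0.679 to 39.4. Where a call was lost or a list changed without these 2 libraries, the value without them is given beside it.

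A large share of the miRNAs changed between P1 and P7. At P7 against P1, with line as a block, 310 of 696 miRNAs changed, 131 upward and 179 downward (44.5% of those tested, 18.8% higher and 25.7% lower). Among the changes of at least 2-fold, 40 were rises and 112 were falls. All 310 had the same sign in both lines. They were picked by the fit over both lines, which favours miRNAs that move alike, so this is not a separate test of replication. The calls came from edgeR's quasi-likelihood test at a Benjamini-Hochberg adjusted p under 0.05, and 357 miRNAs had an unadjusted p under that value. The median log2 fold change of all 696 was -0.09. Without the 2 libraries high in muscle or liver miRNAs 653 were tested, 131 rose and 125 fell, and the median was 0.05.

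The balance of rises and falls depended on the scaling. With RLE factors 152 rose and 160 fell, whereas with library totals alone 17 rose and 350 fell, and with totals counted without miR-10 44 rose and 342 fell. The median of all miRNAs moved to -0.73 and -0.53 under the latter scalings, so the changes below are relative to the typical miRNA of the library and not absolute amounts.

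Within a line, 150 miRNAs changed in Pkd1f (68 higher, 82 lower) and 150 in Pkd2f (79 higher, 71 lower), which is 21.6% of those tested in each case. The Pkd1f count was 92 without its first P7 library. The Pkd2f count was 73 without the third P1 library, and 83 without the third and 89 without the second P7 library. It was 229 without the first Pkd1f P1 library, which is in the same fit, and the cause was not tested. Both lines called 84 miRNAs in the same direction, 45 higher and 39 lower at P7. These were 12.1% of the miRNAs tested and 56% of each line's list. In 83 of the 84 the 3 libraries of P1 and the 3 of P7 did not overlap in either line. Over all tested miRNAs 179 (25.7%) had no overlap in either line with the same direction. A further 130 miRNAs were called in 1 line alone, and 123 of them had the same sign in the other line. Across the 696 miRNAs the log2 fold changes of the lines had a Spearman rho of 0.776, and across the 313 with a mean of at least 10 CPM it was 0.851. miRNAs are not independent replicates, and each line's change comes from its own 6 libraries.

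**Figure D1:**
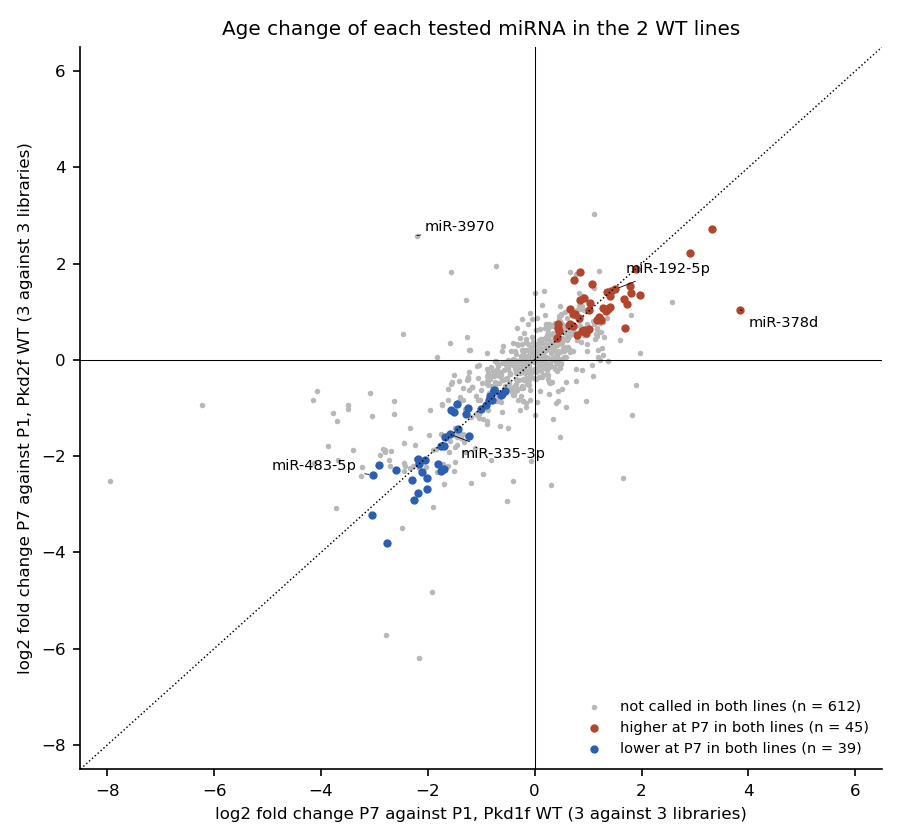
Each point is 1 of 696 miRNAs, with its log2 fold change from P1 to P7 in Pkd1f WT kidneys on the x axis and in Pkd2f WT kidneys on the y axis (3 against 3 libraries each). The 45 miRNAs higher in both lines and the 39 lower in both lie along the dotted line of equality, with miR-378d off it, and miR-3970 lies in the opposite quadrant.

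The 84 shared changes were close in size in the 2 lines. They were picked by calls of the same direction in both lines, so likeness in size and calls in the fit over both lines follow in part from that choice. The median absolute difference between the lines' log2 fold changes was 0.25, and 66 of the 84 differed by less than 0.5. All 84 remained called in the fit over both lines when any 1 of the 12 libraries was left out, and also without the 2 libraries high in muscle or liver miRNAs. The stricter demand of a call in each line separately was met by 39 of the 84 in all 12 fits that left out a library, 27 of them higher and 12 lower. The count of shared calls fell to 55 without the third Pkd2f P1 library. Without both libraries high in muscle or liver miRNAs 69 of the 84 kept their call in each line (37 higher, 32 lower). Among the miRNAs named below, miR-27b-3p, miR-181c-5p, miR-378c, miR-20a-5p, miR-298-5p and miR-675-5p did not. Under all 3 other scalings 39 of the 84 kept their call in both lines, 37 lower and 2 higher. Under library totals alone only those 2 of the 45 rises kept it. They were miR-201-5p and miR-547-3p, rare miRNAs whose calls follow in part from the filter, as described below.

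Abundance and direction went together with TMM factors and all 12 libraries. Among the 54 miRNAs with a mean of at least 1000 CPM, 27 rose and 4 fell, and the median log2 fold change was 0.36. Among the 207 with 1 to 10 CPM, 22 rose and 77 fell, with a median of -0.24. These counts were not repeated in other settings. With library totals alone only 17 of all 696 miRNAs rose, so the 27 rises do not hold there. Without the 2 libraries high in muscle or liver miRNAs the falls among all tested miRNAs went from 179 to 125. Of 221 hairpins with both arms tested, 67 had both arms called, 24 with both higher, 42 with both lower and 1 (miR-27b) with opposite directions. In the rest at most 1 arm was called.

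Tubule miRNAs rose, where 18.8% of all miRNAs did. Of 5 listed, 4 rose in both lines, and the list median was 1.38. With library totals alone 3 of the 5 were called higher, none in both lines, and the median was 0.79. With totals without miR-10 the 4 kept their calls in both lines (median 0.93). miR-192 and miR-194, which are cut from neighbouring hairpins on chromosome 19 (chr19:6264844-6264932 and chr19:6264643-6264728, plus strand, with no host gene on that strand in GENCODE), are known from differentiated tubule epithelium. miR-194-5p is also cut from a hairpin on chromosome 1 (chr1:185313319-185313385, plus strand). miR-192-5p was at 5450, 4910 and 7130 CPM in Pkd1f kidneys at P1 and at 14100, 12700 and 22500 at P7. In Pkd2f kidneys it was at 6700, 5700 and 5130 CPM at P1 and at 11300, 17800 and 19200 at P7. All 6 P7 libraries were above all 6 P1 libraries. The log2 fold change was 1.48 ± 0.18 (SE, adjusted p = 7.3e-05) and was of like size in both lines.

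miR-194-5p followed the same course at a lower level. It was at 125, 116 and 120 CPM at P1 and 284, 265 and 372 at P7 in Pkd1f. In Pkd2f it was at 312, 251 and 239 CPM at P1 and 607, 795 and 723 at P7. The Pkd2f kidneys started near the level that the Pkd1f kidneys reached at P7, yet the log2 fold changes were 1.35 and 1.40 (pooled 1.38 ± 0.11 SE, adjusted p = 5.25e-06). miR-802-5p, known from liver and kidney epithelium, was also higher in Pkd2f at both ages. In Pkd1f it went from 16.4, 14.9 and 15.5 CPM to 56.7, 55.2 and 49.4, and in Pkd2f from 61.9, 48.6 and 32 to 119, 147 and 149. The ages did not overlap within a line, but the first Pkd2f P1 library was above every Pkd1f P7 library. The other Pkd2f P1 libraries were below them. The log2 fold change was 1.66 ± 0.15 (SE, adjusted p = 1.02e-05), and the other arm, miR-802-3p, rose by 1.89 ± 0.21 (SE, adjusted p = 4.44e-05).

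miR-204-5p lies in an intron of Trpm3, and miR-211-5p, which has the same seed, lies in an intron of Trpm1. miR-204-5p was at 403 ± 54 CPM at P1 and 721 ± 157 at P7 in Pkd1f, and at 374 ± 38 against 891 ± 127 in Pkd2f (SD, n = 3). No P7 library was below a P1 library, and it rose by 1.05 on the log2 scale (SE 0.14, edgeR adjusted p = 0.000174). miR-211-5p was rare, at 0.794 to 1.6 CPM at P1 and 1.63 to 3.7 at P7 across both lines, and rose by 1.16 ± 0.20 (SE, adjusted p = 0.000745). The exception in the tubule list was miR-215-5p, which has the seed of miR-192 and went opposite ways in the lines. It was at 2.09, 1.39 and 5.66 CPM at P1 and 8.83, 6.8 and 13.2 at P7 in Pkd1f, but at 2.39, 2.58 and 11.9 against 0.975, 0.816 and 1.29 in Pkd2f. The ages did not overlap in either line. The log2 fold change was 1.66 ± 0.67 (SE, adjusted p = 0.0904) in Pkd1f and -2.45 ± 0.69 (SE, adjusted p = 0.029) in Pkd2f, and the difference between lines was not called (adjusted p = 0.24). The pooled value of -0.37 ± 0.87 (SE) averages these.

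**Figure D2:**
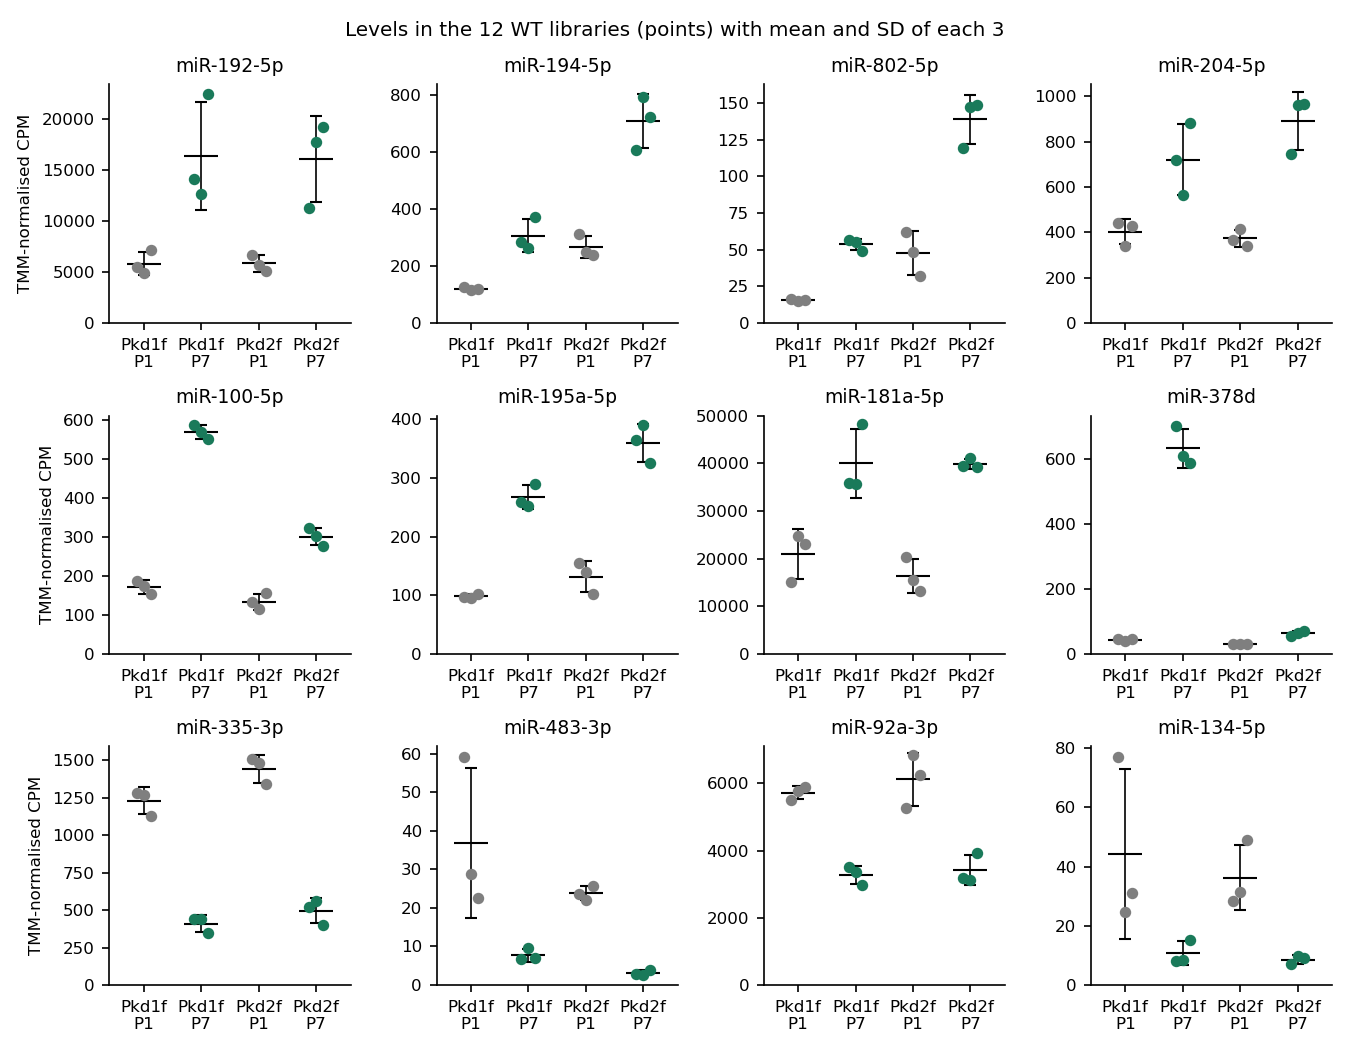
Points are the TMM-normalised CPM of 12 miRNAs in each of the 12 WT libraries (grey P1, green P7), with the mean and SD of the 3 libraries of a group, on a linear axis from 0. The tubule, miR-100, miR-195a and miR-181a panels rise at P7 in both lines, the bottom row falls in both, and miR-378d reaches 588 to 701 in Pkd1f at P7 but 55.8 to 70.3 in Pkd2f.

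The miR-99/100 and miR-125 families rose as a whole with TMM factors. All 5 tested members were called higher (median 0.75), 4 of them in both lines. With library totals alone 1 member was called higher, none in both lines, and the median was 0.12 (-0.1 in Pkd2f). With totals without miR-10, 3 were called higher, 1 of them in both lines (median 0.31). miR-99a, miR-99b and miR-100 share the seed ACCCGUA and were the only tested miRNAs with it that have a RefSeq entry. miR-100-5p was at 172 ± 17.2 CPM at P1 and 569 ± 18.3 at P7 in Pkd1f, and at 115 to 156 CPM against a mean of 301 ± 22.8 in Pkd2f (SD, n = 3). The spread within each group was small beside the change, which was 1.44 ± 0.13 (SE, adjusted p = 7.85e-06). miR-99b-5p, the most abundant of the 3, rose by 0.75 ± 0.10 (SE, adjusted p = 0.00016), from 2810 to 4180 CPM over the 6 P1 libraries to 4240 to 7060 over the 6 at P7. miR-99a-5p rose by 0.65 ± 0.11 (SE, adjusted p = 0.000855) and miR-125a-5p by 0.84 ± 0.13 (SE, adjusted p = 0.00057).

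The let-7 family, the classical heterochronic miRNAs, did not move as a block. Of 9 tested members 2 rose and 2 fell, none in both lines, and the median was 0.10. That median turned to -0.49 with library totals alone and to -0.35 with totals without miR-10. let-7b-5p rose by 0.60 ± 0.13 (SE, adjusted p = 0.00302), from 427 ± 26.7 to 629 ± 176 CPM in Pkd1f and from 490 to 602 to a mean of 842 ± 95.3 in Pkd2f (SD, n = 3). let-7i-5p fell by 0.28 (SE 0.10, adjusted p = 0.0356), a call that was lost without the 2 libraries high in muscle or liver miRNAs (adjusted p = 0.0947). miR-98-5p fell by 0.62 (SE 0.22, adjusted p = 0.0383), and the third Pkd1f P1 library, at 1470 CPM, stood above the 471 to 715 of the other P1 libraries.

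miR-15, miR-16, miR-195 and miR-497 share the seed AGCAGCA and are known as brakes on cell-cycle genes. Of 5 listed members 4 rose, and miR-195a-5p and miR-497a-5p did so in both lines. These 2 come from 1 cluster on chromosome 11 (chr11:70234717-70235135, plus strand). miR-195a-5p was at 97.7, 95.9 and 103 CPM at P1 and 259, 252 and 290 at P7 in Pkd1f. In Pkd2f it was at 155, 139 and 103 CPM at P1 and 364, 390 and 325 at P7. The log2 fold change was 1.44 ± 0.11 (SE, adjusted p = 4.69e-06). miR-497a-5p, in the same cluster, rose by 1.37 ± 0.11 (SE, adjusted p = 4.69e-06). The rises of miR-15a-5p (0.45) and miR-16-5p (0.33) were smaller, and with library totals alone these became -0.16 and -0.31 and the list median of 0.45 became -0.16.

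The miR-181 family was among the most abundant to rise. miR-181a-5p, known from lymphocytes and many epithelia, went from 15100, 24800 and 23200 CPM to 36000, 35700 and 48300 in Pkd1f. In Pkd2f it went from 20400, 15500 and 13300 CPM to 39500, 41100 and 39200. The groups did not overlap, and the log2 fold change was 1.10 ± 0.16 (SE, adjusted p = 0.000233). miR-181c-5p rose by 0.85 ± 0.16 (SE, adjusted p = 0.00175), while miR-181b-5p (0.28 ± 0.12 SE) and miR-181d-5p (0.09 ± 0.10 SE), which have the same seed, did not pass the test. With library totals alone the list median of 0.56 became -0.01.

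Families known from epithelium and matrix also held rises. All 5 miR-30 members, which are abundant in nephron epithelium, rose (median 0.60), and miR-30b-5p did so in both lines, from 710 to 832 CPM to 1200 to 1380 in Pkd1f and from 1050 to 1180 to 2090 to 2320 in Pkd2f (0.83 ± 0.09 SE, adjusted p = 2.23e-05). Of the 5 miR-200 family members, which keep epithelial cells from turning mesenchymal, 4 rose (median 0.51) and none in both lines. Without the 2 libraries high in muscle or liver miRNAs 2 of the 5 were called, and miR-141-3p (adjusted p = 0.053) and miR-429-3p (0.0781) were not. Of 3 miR-29 members, which target collagens, 2 rose (median 0.68), miR-29a-3p by 0.99 ± 0.24 (SE, adjusted p = 0.00635). With library totals alone the medians of the miR-30 and miR-200 lists became -0.06 and -0.03, whereas that of miR-29 kept its sign.

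miR-27b-3p and miR-22-3p were, with miR-181a-5p and miR-192-5p, the 4 most abundant miRNAs called higher in both lines. miR-27b-3p, which is cut from the same transcript as miR-24-1 on chromosome 13, went from 11500 to 15500 CPM over the 6 P1 libraries to 16400 to 28100 at P7 (0.68 ± 0.14 SE, adjusted p = 0.00287). miR-22-3p went from 6380 to 7840 CPM to 8930 to 17400 (0.86 ± 0.13 SE, adjusted p = 0.000445). For both, every P7 library lay above every P1 library. miR-27b-3p kept its call in each line in 4 of the 12 fits that left out a library. Its other arm, miR-27b-5p, named after its values were seen, had a mean of 25.7 CPM and was called lower (-0.3). miR-150-5p, a miRNA of mature lymphocytes, rose from 7.55 to 11.7 CPM to 27 to 35.2 in Pkd1f and from 20 to 21.8 to 42.2 to 56.9 in Pkd2f (1.46 ± 0.15 SE, adjusted p = 2.23e-05).

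A rise of similar size in both lines was also seen in 2 rare miRNAs of the X chromosome, named after their values were seen. Neither had 10 reads in 3 P1 libraries, so both met the filter with the help of P7 libraries, where they are high, and their calls follow in part from that filter. miR-201-5p and miR-547-3p lie on the minus strand within chrX:67988096-67988451. miR-201-5p went from 0.0993 to 0.311 CPM over the P1 libraries to 0.675 to 1.46 at P7 (2.48 ± 0.29 SE, adjusted p = 5.43e-05). miR-547-3p went from 0 to 0.199 CPM to 0.433 to 1.43 (2.92 ± 0.40 SE, adjusted p = 0.00019). The P1 levels are near the limit of 3 reads in a library, which is 0.0588 to 0.298 CPM at P1, so both fold changes are imprecise. Such limits cover counting error only.

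miR-378 was where the lines parted. miR-378d was at 46.2, 39.2 and 46.4 CPM at P1 and 701, 611 and 588 at P7 in Pkd1f. In Pkd2f it was at 31.3, 30.3 and 31.6 CPM at P1 and 55.8, 65.4 and 70.3 at P7. It rose in both lines, by 3.85 ± 0.15 (SE, adjusted p = 2.46e-08) and by 1.04 ± 0.13 (SE, adjusted p = 0.000396), and the difference between lines was 2.81 ± 0.19 (SE, adjusted p = 1e-05). Its relatives did not share that jump. miR-378a-3p, cut from a precursor of its own and far more abundant at P1 (means of 5000 CPM in Pkd1f and 3440 in Pkd2f), rose by 0.36 ± 0.09 (SE, adjusted p = 0.00699), and miR-378c by 0.55 ± 0.09 (SE, adjusted p = 0.000588). Whether reads of the abundant miR-378a-3p were counted as miR-378d was not tested.

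The difference between lines was called for 2 of 696 miRNAs (0.287%), and 37 had an unadjusted p under 0.05. The second was miR-3970, which was rare and moved in opposite directions. It was at 0.978, 1.69 and 1.43 CPM at P1 and 0.119, 0.128 and 0.47 at P7 in Pkd1f, and at 0.0956, 0.128 and 0.0588 against 0.325, 0.612 and 0.767 in Pkd2f. Several of these values are at or under 3 reads.

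The falls included miRNAs of imprinted loci and of the miR-17/92 cluster. In the miR-17/92 cluster and its paralogs, which drive proliferation of nephron progenitors, 4 of 13 tested members fell and none rose, beside 25.7% of all miRNAs that fell, and the list median of -0.11 was near the -0.09 of all miRNAs. All 4 were called in both lines, but miR-20a-5p kept that call in 1 of 12 fits that left out a library and lost it with DESeq2 and without the 2 libraries high in muscle or liver miRNAs. The 4 are miR-17-5p, miR-18a-5p, miR-20a-5p and miR-92a-3p, and their hairpins lie within 1 exon-borne cluster in the long non-coding gene Mir17hg (chr14:115043671-115044506, plus strand), although miR-92a-3p is also cut from a copy on the X chromosome. miR-92a-3p was at 5510, 5770 and 5900 CPM at P1 and 3510, 3350 and 2980 at P7 in Pkd1f, and at 5280, 6840 and 6240 against 3200, 3130 and 3930 in Pkd2f (-0.82 ± 0.09 SE, adjusted p = 4.75e-05). miR-18a-5p went from 244 to 397 CPM over the P1 libraries to 83.9 to 145 at P7 (-1.21 ± 0.15 SE, adjusted p = 7.3e-05).

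The changes of miR-17-5p and miR-20a-5p were -0.70 ± 0.10 (SE) and -0.67 ± 0.13, at adjusted p-values of 0.000222 and 0.00249. miR-106a-5p, miR-106b-5p, miR-20b-5p and miR-93-5p carry the same seed as these 2 and were not called. miR-19b-3p, of the same transcript, varied widely, at 1830 and 2050 CPM in the first and second Pkd1f P7 libraries and 1210 in the first Pkd2f P7 library, but 173 to 249 in the other 3 P7 libraries and 297 to 850 at P1. Those 3 high libraries were also the P7 libraries with the largest miR-10 share, 66.4% to 81% against 42.8% to 57.9%. miR-19b-3p was not called (0.74 ± 0.53 SE) and was named after its values were seen. When the miR-10 percentage entered the fit, 150 miRNAs rose and 171 fell.

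Other shared falls came in genomic groups. miR-130b-3p, named after its values were seen, which lies with miR-301b on chromosome 16, was among the most even, at 450, 560 and 456 CPM at P1 and 238, 234 and 260 at P7 in Pkd1f, and at 645 to 690 against 303 to 356 in Pkd2f (-1.02 ± 0.09 SE, adjusted p = 5.39e-06). miR-298-5p and miR-296-3p, neighbours on chromosome 2, changed by -0.80 ± 0.13 (SE) and -0.92 ± 0.15, with adjusted p-values of 0.000615 and 0.000683. Within the 65 shared miRNAs with a single RefSeq locus, 9 groups of hairpins lay within 10 kb of each other on 1 strand, and in each group the members had the same direction. Likewise 7 seeds were held by 2 or more of the 74 shared miRNAs with a RefSeq entry, and each of the 7 had members of 1 direction only. Except for ACCCGUA with 3, each had 2 such members. Some pairs, such as miR-17-5p with miR-20a-5p and miR-195a-5p with miR-497a-5p, are also neighbours, so the 2 counts overlap. Both cover only miRNAs called in both lines and were not made over all tested miRNAs. Of the 5 tested with seed AUUGCAC, 1 was called higher and 1 lower.

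**Figure D3:**
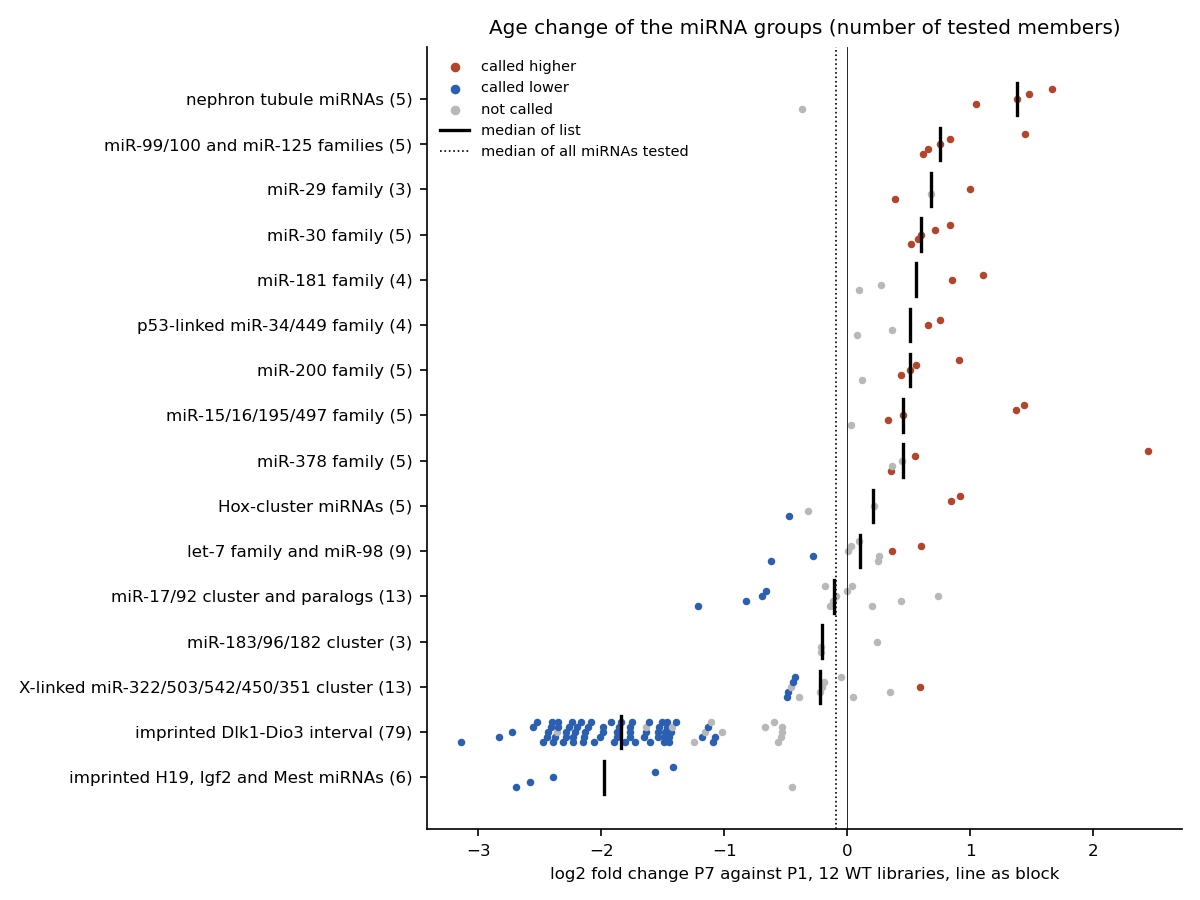
Each point is the log2 fold change from P1 to P7 of 1 tested member of a miRNA group over the 12 WT libraries (red called higher, blue called lower, grey not called), the black bar is the median of the group and the dotted line the median of all 696 miRNAs, -0.09. Tubule miRNAs lie at the top with a median of 1.38, and the H19, Igf2 and Mest miRNAs at the bottom with -1.98.

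The miRNAs of the imprinted genes H19, Igf2 and Mest, which belong to a network of genes that control fetal growth and are silenced after birth, mostly fell. Of 6 tested, 5 fell, all 5 in both lines, and the median was -1.98 against -0.09 for all miRNAs. miR-335-3p, in an intron of Mest (chr6:30741299-30741396, plus strand), was at 1280, 1270 and 1130 CPM at P1 and 442, 441 and 344 at P7 in Pkd1f. In Pkd2f it was at 1510, 1480 and 1340 CPM at P1 and 519, 562 and 402 at P7. The log2 fold changes were -1.59 and -1.54 (pooled -1.57 ± 0.11 SE, adjusted p = 3.14e-06). Its other arm, miR-335-5p, changed by -0.45 ± 0.28 (SE) and was not called.

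miR-483 lies in an intron of Igf2 (chr7:142654924-142654996, minus strand), the fetal growth factor gene. miR-483-3p was at 59, 28.9 and 22.5 CPM at P1 and 6.68, 9.62 and 6.89 at P7 in Pkd1f, and at 23.5, 22.1 and 25.7 against 2.98, 2.55 and 3.99 in Pkd2f. The log2 fold change was -2.58 ± 0.26 (SE, adjusted p = 1.91e-05). miR-483-5p, the other arm, fell by 2.69 (SE 0.22, adjusted p = 4.69e-06). Of H19's miR-675, which restrains growth of the placenta, miR-675-3p fell by 1.42 (SE 0.24, adjusted p = 0.000707). The other arm, miR-675-5p, was near the counting limit at P7, at 0.0307 to 0.385 CPM against 0.469 to 0.88 at P1. It was also called lower in both lines. However, miR-675-5p met the filter only with the help of P1 libraries, where it is high, so its call follows in part from that filter. Without the 2 libraries high in muscle or liver miRNAs the list median was -1.85 and 5 of 6 members were still called lower.

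The imprinted Dlk1-Dio3 interval of chromosome 12 holds a large group of miRNA hairpins that are expressed from the maternal chromosome, mainly in the embryo. Of 100 listed miRNAs, 96 had a RefSeq position inside chr12:109452823-110281097 and 4 had no entry. Of 79 tested, 66 fell and none rose, with a median log2 fold change of -1.84, where 25.7% of all miRNAs fell. A further 6 tested miRNAs inside these coordinates were not on the list. Of these 3 fell, 2 were not called and miR-1247-5p, named after its values were seen, rose (0.85 ± 0.32 SE, adjusted p = 0.0484), with a change of 0.17 in Pkd1f and 1.44 in Pkd2f. The listed miRNAs in the 2 lines had medians of -1.70 and -1.86, and 13 members were called lower in both lines. The direction was the same under all 3 other scalings, with medians of -1.75 to -2.54.

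The size of that change differed with and without the 2 P1 libraries that stood apart. The 79 miRNAs summed to 37700 CPM in the first Pkd1f P1 library, the one high in muscle miRNAs, and to 6660 and 5770 in the others, against 4740, 5830 and 6120 at P7. In Pkd2f they summed to 14500 CPM in the third P1 library, the one high in liver miRNAs, and to 7470 and 6090 in the others, against 2810 to 3650 at P7. In Pkd1f the summed levels overlapped once the first library was set aside, and in Pkd2f they did not overlap.

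Without these 2 libraries, 47 of the 71 members then tested were called lower, the median was -0.88, and the lines had medians of -0.42 in Pkd1f and -1.27 in Pkd2f. That alternative was chosen after the data were seen, and it left 2 P1 libraries in each line. Under it 16 members were called in both lines. miR-134-5p, in an exon of the non-coding gene Mirg, was at 77, 24.8 and 30.9 CPM at P1 and 8.11, 8.59 and 15.3 at P7 in Pkd1f, and at 28.4, 31.3 and 48.8 against 6.93, 9.92 and 8.96 in Pkd2f. It fell with all libraries (-2.06 ± 0.29 SE, adjusted p = 0.000249) and without the 2 (-1.54, adjusted p = 8.56e-05).

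The other members of the interval among the largest shared falls behaved alike. miR-540-3p changed by -2.55 with all libraries and by -1.81 without the 2, miR-409-3p by -2.17 and -1.38, miR-411-3p by -2.23 and -1.36, miR-379-3p by -1.99 and -1.23, and miR-300-3p by -1.99 and -1.15. All 5 were called under both settings. miR-541-5p, the most abundant of the shared falls in the interval, was at 1820, 957 and 683 CPM at P1 and 355 ± 128 (SD, n = 3) at P7 in Pkd1f and at 898, 703 and 1510 against 400, 249 and 247 in Pkd2f, and its change went from -1.75 to -1.25. Outside the interval, miR-2137 fell by 2.43 (SE 0.38, adjusted p = 0.000483), from 7.21 to 46.4 CPM at P1 to 0.385 to 5.9 at P7.

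**Figure D4:**
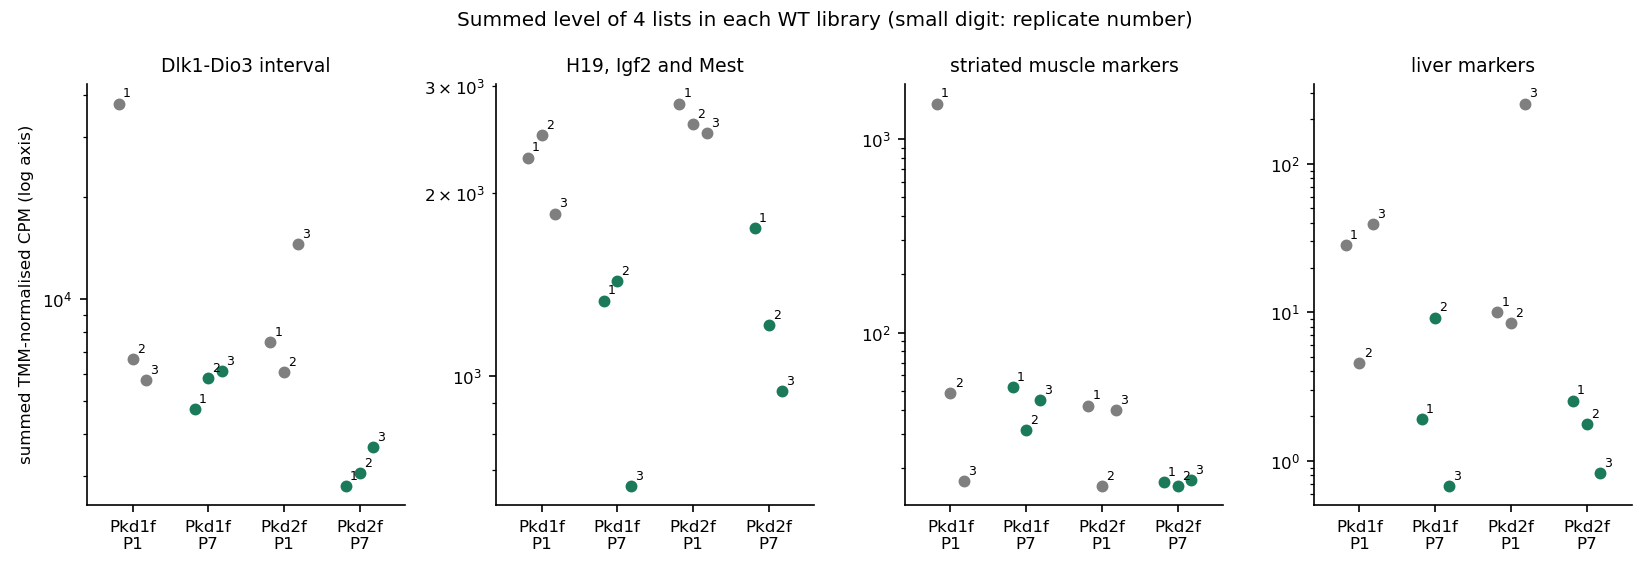
Points are the summed TMM-normalised CPM of 4 lists in each of the 12 WT libraries on log axes, grey for P1 and green for P7, with the replicate number beside each. The first Pkd1f P1 library is high for Dlk1-Dio3 miRNAs (37700) and for muscle (1530), the third Pkd2f P1 library for Dlk1-Dio3 (14500) and for liver (254), and the H19, Igf2 and Mest sums are lower at P7 in both lines without such a split.

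The remaining lists of miRNA groups were mixed or small. Of 13 miRNAs of the X-linked miR-322 cluster, 1 rose, miR-322-5p, and 4 fell, none in both lines (median -0.22). Without the 2 libraries high in muscle or liver miRNAs none of the 13 rose and 2 fell. None of the 3 miR-183 cluster members was called (median -0.21). The Hox-cluster list had 2 rises, miR-10a-5p and miR-10b-5p, and 1 fall, miR-196a-5p, and its median of 0.21 became -0.51 with library totals alone. None of these 3 was called without the same 2 libraries (adjusted p = 0.0624, 0.0714 and 0.0767). Of 4 miRNAs of the miR-34 family 2 rose (median 0.51, or -0.21 with library totals alone), and 3 did without the 2 libraries. Of the pluripotency clusters 1 miRNA was tested, miR-295-3p, and it fell by 1.92 (SE 0.49, adjusted p = 0.00733). At 0.034 to 0.898 CPM at P7, it met the filter only with the help of P1 libraries, so this call follows in part from that filter.

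Markers of other cell types moved as follows. Since whole kidneys were sequenced, a smaller number of cells of a type and less RNA in each cell cannot be told apart, and the part of cell makeup in the age changes was not tested. Of 6 leukocyte miRNAs 3 rose (median 0.63; 4 without the 2 libraries), and their summed level was 205 to 439 CPM at P1 and 357 to 642 at P7. Of 4 vessel miRNAs 2 rose (median 0.63), with sums of 30400 to 43800 CPM at P1 and 45900 to 92700 at P7. Of 4 mesenchyme miRNAs 2 rose and miR-214-3p fell, the latter in both lines (-0.60 ± 0.09 SE, adjusted p = 0.000346). With library totals alone the mesenchyme median of 0.28 became -0.36 the erythroid median of 0.24 became -0.40, and those of leukocytes and vessels became 0.

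Among 4 erythroid miRNAs 1 rose, with sums of 1870 to 4270 CPM at P1 and 1900 to 3390 at P7. Of 6 muscle miRNAs 2 fell, and of the 4 tested without the 2 libraries none was called. Both liver miRNAs fell with all libraries (median -4.17) and without the 2 (-2.43), from 4.57 to 254 CPM summed at P1 to 0.679 to 9.23 at P7. Of 4 neuronal miRNAs 2 fell, and without the 2 libraries 2 were tested and none was called, and none of 3 endocrine miRNAs was called, against 1 rise among the 2 tested without the 2 libraries. No marker was at 0 in all 12 libraries.

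The P3 libraries gave an intermediate point, as a description, with all 18 WT libraries scaled together and mean ± SD over 6 libraries at each age. miR-192-5p was at 6460 ± 1000 CPM at P1, 8490 ± 3170 at P3 and 18500 ± 4920 at P7. miR-195a-5p was at 127 ± 23.3, 190 ± 39.6 and 356 ± 68.7 CPM, and miR-335-3p at 1470 ± 111, 1030 ± 89.2 and 513 ± 96.4. These 3 passed through P3 at a level between those of P1 and P7. miR-130b-3p was at 637 ± 99.6, 659 ± 82.3 and 324 ± 60.1 CPM, with the P3 mean inside the SD of P1. miR-134-5p was at 44.4 ± 22, 16.8 ± 4.73 and 10.9 ± 3.23 CPM.

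KO kidneys, which lack Pkd1 or Pkd2 in the collecting duct, shared most of the programme. In 12 KO libraries, which have none in common with the WT comparison, 250 of 705 miRNAs changed between P1 and P7 (35.5%), and 114 of the 250 were lower. In both genotypes 169 were called in the same direction, 54.5% of the WT calls and 67.6% of the KO calls, and none in the opposite. Of the 84 miRNAs called in both WT lines, 66 were called in the same direction in KO, 38 of the 45 rises and 28 of the 39 falls, and 83 had the same sign. The H19, Igf2 and Mest list was alike in KO (5 of 6 lower, median -2.02), while the Dlk1-Dio3 list had 20 falls, 1 rise and a median of -0.53. The difference between genotypes was not tested for the list as a whole, and the 2 libraries set apart above were WT. KO libraries also differed in muscle miRNAs. These summed to 169 CPM in the third Pkd2f P1 and 112 in the first Pkd2f P7 KO library, against 22.8 to 67.5 in the other KO libraries. The Dlk1-Dio3 sums of KO libraries were 5590 to 12300 CPM at P1 and 5010 to 10300 at P7.

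**Figure D5:**
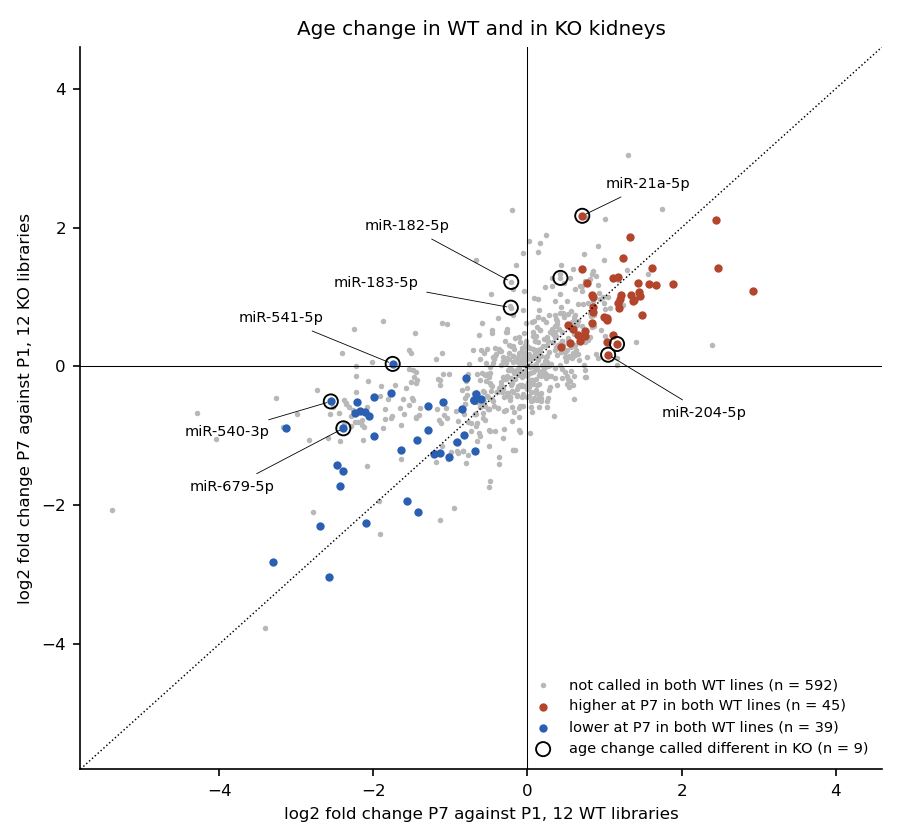
Each point is 1 miRNA tested in both genotypes, with its log2 fold change from P1 to P7 over the 12 WT libraries on the x axis and over the 12 KO libraries on the y axis, coloured by the call in both WT lines. Of the 84 coloured points 83 have the same sign in KO, and the 9 circled miRNAs are those whose age change differed between genotypes by test.

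The age change itself differed between KO and WT for 9 of 742 miRNAs (1.21%), and 175 had an unadjusted p under 0.05. miR-21a-5p, a miRNA of injured and proliferating epithelium, rose in WT in both lines, from 2800 to 4260 CPM at P1 to 4880 to 6750 at P7 (0.71 ± 0.08 SE, adjusted p = 3.74e-05). In KO it went from 2310 to 4640 CPM to 8470 to 22200, and the difference in age change was 1.42 ± 0.19 (SE, adjusted p = 0.000193). miR-182-5p and miR-183-5p, 2 sensory and epithelial miRNAs of 1 cluster, were not called in WT (-0.21 and -0.22) and rose in KO (1.22 and 0.85).

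miR-204-5p was the reverse. It rose in WT by 1.05 but in KO it changed by 0.17 ± 0.16 (SE, adjusted p = 0.449), with 525 ± 162 CPM at P1 and 575 ± 108 at P7 over the 6 KO libraries of each age (SD). The difference was -0.91 ± 0.18 (SE, adjusted p = 0.0118). The number of such differences was unstable. It was 63 with DESeq2. Leaving out 1 KO library gave 90 (the first Pkd2f P7), 3 (the third Pkd1f P7), 4 (the first Pkd1f P7) and 5 (the second or the third Pkd1f P1, or the third Pkd2f P7). Leaving out 1 WT library gave 38 (the third Pkd1f P1), 20 (the first Pkd1f P1), 13 (the first Pkd2f P7) and 5 (the third Pkd2f P1).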

How the data were processed

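Small RNA of whole kidneys was sequenced, and the authors deposited 1 table of raw read counts per mature miRNA and precursor for 36 libraries. Per the study's methods, adaptors were trimmed, short reads dropped and the rest quantified with miRDeep2 against miRBase. The submitters' processing notes name CASAVA 1.8.2, HTSeq and the build mm10. Library totals were 13022619 to 27519491. Counts are relative levels, and reads shared by near-identical miRNAs cannot be told apart: 18 tested miRNAs have a count row identical to another's, 2 of them among the shared changes (miR-669a-3p and miR-669o-3p).

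Of 2061 rows, 83 mature miRNAs were on several, of which the most abundant row over all 36 columns was used. Groups came from the sample titles. miRNAs with at least 10 reads in 3 libraries were fitted in edgeR 4.0.16 (R 4.3.3) with TMM factors, line and age (1 mean per group for contrasts within lines and between them) and the quasi-likelihood test, with Benjamini-Hochberg adjustment over all miRNAs tested and a threshold of 0.05. The steps were tested on simulated data. The KO libraries were fitted separately, and all 24 together for the difference between genotypes.

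The members and the lists were chosen with earlier results of these data known. Named miRNAs were the 8 largest rises and falls called in the fit over both lines and in each line with a mean of at least 10 CPM, the 4 most abundant of each direction, those with a called difference between lines or genotypes (up to 4 each), and up to 4 of each list. Alternatives were RLE factors, library totals with and without miR-10, DESeq2 1.42.0, other filters, summed rows, all 36 libraries, a miR-10 covariate, a replicate block, no line term and each library left out. Counts of replicates differed beyond sampling noise in all 12 pairs (chi-square divided by its degrees of freedom of at least 27.2), so no library was counted as a duplicate.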

Additional observations from a re-analysis of the deposited data

Results flagged for a closer look

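The following results are set out because a test of the difference between groups was passed. Between lines, the age change of miR-378d was larger in Pkd1f by 2.81 on the log2 scale, and that of miR-3970 differed by -4.78. miR-378d kept this call in 11 of 12 alternative settings, among them the setting with no line term, which leaves this contrast unchanged. It was also called in all 12 fits that left out a WT library, with values of 2.72 to 2.88. miR-3970 kept its call in 10 of those 12 fits, at levels near the limit of counting. The causes were not tested.

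Between genotypes (KO minus WT), the age change differed by 1.42 for miR-21a-5p, 1.39 for miR-182-5p, 1.03 for miR-183-5p, 0.81 for miR-222-3p, -0.91 for miR-204-5p and -0.90 for miR-211-5p. miR-21a-5p, miR-182-5p and miR-183-5p were called in all 24 fits that left out a library, miR-204-5p in 23, miR-222-3p in 19 and miR-211-5p in 6. For 3 miRNAs of the Dlk1-Dio3 interval the difference was 1.98 (miR-540-3p), 1.73 (miR-541-5p) and 1.45 (miR-679-5p), called in 16, 8 and 16 of the 24 fits. Without the 2 WT P1 libraries high in muscle or liver miRNAs these were 1.33, 1.32 and 1.05, and miR-541-5p was no longer called (adjusted p = 0.10).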

How the results depend on the processing

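With library totals alone 488 miRNAs were called in KO, and 0 for the difference between lines and 0 between KO and WT. With totals without miR-10 there were 264 calls in Pkd1f, 312 in Pkd2f, 211 in both lines and about 3.8e02 in KO. DESeq2 called 128 in both lines, 7 between lines and 63 between KO and WT. A mean of at least 10 CPM left 177 (pooled), 1 (between lines), 163 (KO) and 59 (KO against WT). All 36 libraries gave 131 in both lines. The miR-10 covariate gave 133 in both lines, 128 in KO and 35 for KO against WT. Only fewer miRNAs tested is a cause by construction, and the other causes were not tested.

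The labels do not say whether same-numbered libraries share more than a number. Their correlations were -0.142 to 0.233, against -0.271 to 0.28 between libraries of other numbers, which cannot show whether litters were shared. A replicate block gave 294 calls in the pooled comparison, 76 in both lines and 1 between lines. Leaving out 1 library gave 263 to 319 calls (pooled), 92 to 194 (Pkd1f), 73 to 229 (Pkd2f), 55 to 113 (both lines), 1 to 2 (between lines), 203 to 289 (KO) and 3 to 90 (KO against WT).

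Log2 changes that turned with library totals alone were those of let-7c-5p (-0.22), miR-30a-5p (-0.06), miR-30e-5p (-0.12), miR-200b-3p (-0.20), miR-200a-3p (-0.02), miR-429-3p (-0.03), miR-29c-3p (-0.23), miR-378c (-0.08), miR-378a-3p (-0.29), miR-15a-5p (-0.16), miR-16-5p (-0.31), miR-322-5p (-0.12), miR-34b-5p (-0.08), miR-144-5p (-0.19), miR-126a-3p (-0.18), miR-199b-5p (-0.27) and miR-199a-5p (-0.38). List medians that turned were let-7 (-0.49), miR-30 (-0.06), miR-200 (-0.03), miR-378 (-0.15), miR-15/16 (-0.16), Hox (-0.51), miR-181 (-0.01), miR-34 (-0.21), erythroid (-0.40), leukocyte and vessel (both 0 when rounded) and mesenchyme (-0.36). With totals without miR-10 those that turned were let-7c-5p (-0.10), miR-200b-3p (-0.01), miR-29c-3p (-0.05), miR-378a-3p (-0.09), miR-16-5p (-0.11), miR-144-5p (-0.04), miR-126a-3p (0 when rounded) and miR-199a-5p (-0.12), and the medians of let-7 (-0.35), miR-378 (-0.01), Hox (-0.21), erythroid (-0.20) and mesenchyme (-0.16). Depth limits the miRNAs near 3 reads a library.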
